A study of Homo sapiens with 6 samples.

Results

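Nuclear receptors are transcription factors that bind DNA as single proteins or in pairs, and many of them are switched by a small lipophilic ligand such as retinoic acid, thyroid hormone, vitamin D or a steroid. The retinoic acid, thyroid hormone, vitamin D and PPAR receptors bind DNA paired with a retinoid X receptor, recruit corepressors such as NCOR1 without ligand, and exchange them for coactivators when ligand is bound. In the liver, members of the family set bile acid synthesis, lipid handling, drug metabolism and hepatocyte identity. The family was examined here through 46 listed human receptor genes, chosen by gene name, in a table of 27009 genes, and 41 of the 46 had a row. RORB, RXRG, NR2E1, ESRRG and NR5A1 had no row in the table used here and were not analysed.

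RNA sequencing compared Hep3B cells, labelled as a human hepatocellular carcinoma line, all with a knockout of endogenous PD-L1, that stably carried either the empty lentiviral vector (pCDH-CMV-Puro) or nPD-L1, a PD-L1 with a mutated stretch that places the protein in the nucleus. The vector drives nPD-L1 from the CMV promoter, both groups share the knockout and the stable infection, and there were 3 libraries per group. The comparison asked which transcripts differ between knockout cells given nPD-L1 and knockout cells given the empty vector. No library came from knockout cells given wild-type PD-L1. The nuclear place of the protein and the return of PD-L1 itself therefore cannot be told apart here. Each value was the number of reads on a gene divided by a size factor of its library (scaled reads), and the libraries held 17427519 to 22253295 reads on genes.

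2 checks of the labels came first. CD274, the gene of PD-L1, had 28.3, 38.4 and 47.8 scaled reads in the vector libraries against 16.8, 19.2 and 30.9 in those labelled nPD-L1. Its RNA was thus not higher where a PD-L1 sequence had been introduced, and the directions given below rest on the labels. The study reports PD-L1 protein in the nucleus of knockout Hep3B cells given nPD-L1, a measure that these RNA values do not give. Markers of hepatocytes were nearly absent: ALB, APOA1, APOB, TF and TTR reached at most 2.89 scaled reads in any library, TM4SF4 ran from 0 to 10.1, SERPINA1 from 7.91 to 41.4, and only FGB, a fibrinogen chain, was abundant (962 to 1540). AFP and GPC3 had no row in the table used here. These values go against the hepatocyte origin in the label, and the cells are therefore called by their label only. Of the markers of other cells, PTPRC, PECAM1 and DCN had at most 5.04 scaled reads, while CD3E, CD68 and CDH5 had no row. The fibroblast genes LUM (99.9 to 182) and COL1A1 were detected, and COL1A1 moved with the groups, at 82.8, 63.2 and 49.9 with vector and 465, 445 and 487 with nPD-L1 (log2 fold change 2.84, limma adjusted p = 8.0e-06). The part of these markers in the receptor results was not tested. In bulk RNA, fewer cells of a type and less RNA per cell cannot be told apart. Vector replicate 2 stood apart from the other vector libraries, with 883 and 1281 genes more than 2-fold from vector replicates 1 and 3, against 602 between those.

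Of the 41 receptors with a row, 35 reached 10 scaled reads in at least 3 libraries and were counted as expressed and tested, and 32 of them reached 10 in all 6 libraries. Levels were compared between genes as scaled reads per kb of exon. In the vector libraries the most abundant receptors were NR0B1 (DAX1), which lacks the usual DNA-binding domain and represses other receptors, at a mean of 1120 per kb, and NR2F6, an orphan of the COUP-TF group, at 961 per kb. The ranges of these libraries overlapped between the 2. The estrogen-related receptor ESRRA followed at 593 per kb, then NR3C1, the glucocorticoid receptor, at 493 and NR1H2, the LXR-beta oxysterol receptor, at 440, whose ranges overlapped. PPARG, the fatty acid sensor known from adipocytes, had 395 per kb and took 85.7% to 89.4% of the PPAR level in the vector libraries, whereas PPARA, the main PPAR of hepatocytes, took 0.608% to 0.912%.

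6 receptors with a row stayed below the minimum. NR1I2 (PXR), the xenobiotic sensor of the liver, had no read in any vector library and 0.840, 2.02 and 0 scaled reads in the nPD-L1 libraries. NR1H4 (FXR), the bile acid receptor, had at most 1 read in any library, and NR0B2 (SHP), which FXR is known to induce in the liver, at most 2. The estrogen receptors were also low, ESR1 at 2.26 to 13.5 scaled reads and ESR2 at 4.05 to 13.4, and ESRRB ran from 1.04 to 9.04. These genes were too low for the test at this depth.

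**Figure D1:**
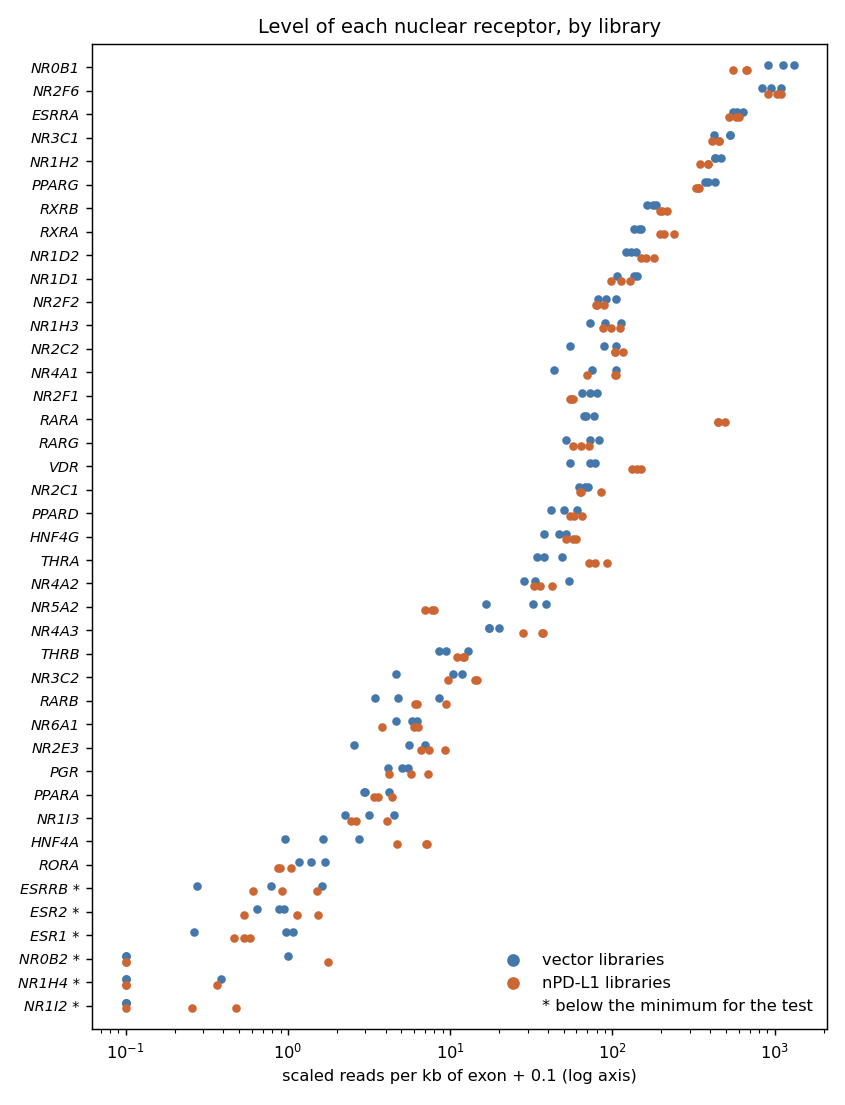
Scaled reads per kb of exon plus 0.1, on a log axis, for the 41 nuclear receptors with a row, one point per library (blue, 3 vector libraries; orange, 3 nPD-L1 libraries), ordered by the vector mean. RARA stands at 66.4 to 77.3 per kb with vector and at 445 to 492 with nPD-L1, and the 6 receptors marked with a star were below the minimum for the test.

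Between the groups, 6 of the 35 receptors tested were higher in the libraries labelled nPD-L1 and 2 were lower at an adjusted p under 0.05 (limma). Those higher were RARA, HNF4A, VDR, THRA, NR4A3 and RXRA, and those lower were NR5A2 and NR0B1. The 8 receptors make 22.9% of those tested, where 4.96% of all 15076 genes tested were called. By direction, 17.1% of the receptors tested were higher, against 4.04% of all genes, and 5.71% were lower, against 0.922% of all genes. The median log2 fold change of the 35 was 0.175 and that of all genes tested was −0.02. Without vector replicate 2, the library that stood apart, the same 8 receptors were called. Because the list was drawn up with results of these data known, the shares describe it and give it no test of its own.

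**Figure D2:**
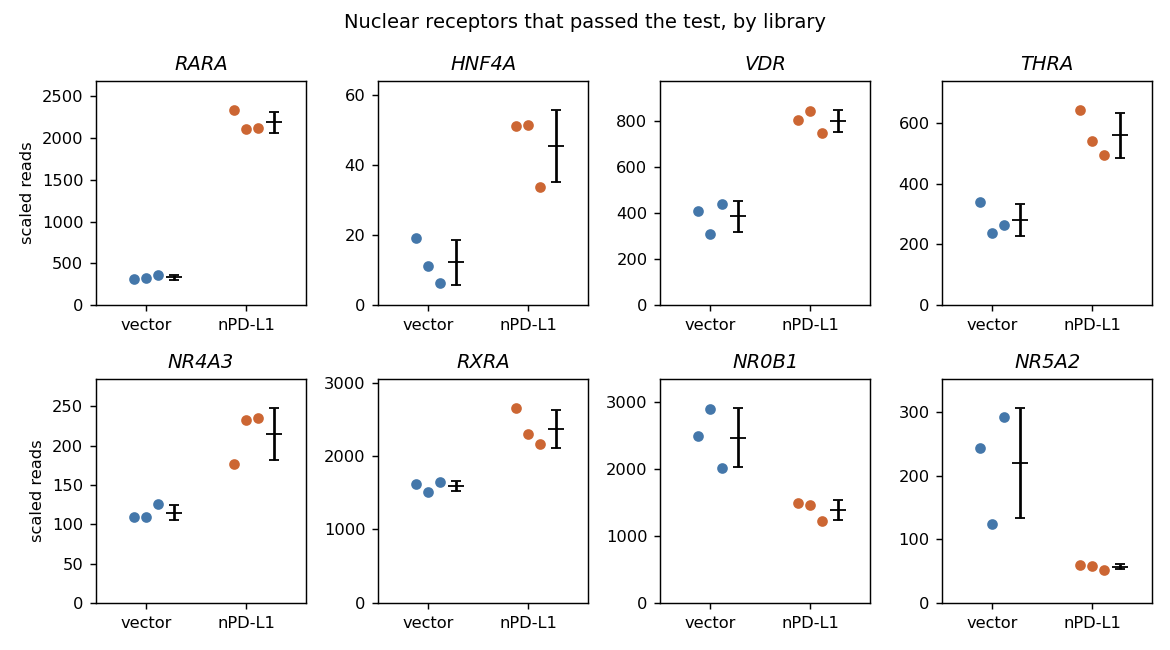
Scaled reads (linear axes from 0) of the 8 receptors that passed the test, one point per library, with the mean and SD of each group of 3 beside the points. In all 8 panels the vector and nPD-L1 points do not overlap, and the widest gap relative to the vector level is that of RARA.

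RARA (ENSG00000131759, chromosome 17 from 40309192 to 40357643 on the + strand, GRCh38) encodes the retinoic acid receptor alpha, which activates genes at retinoic acid response elements. It had 313.9, 323.0 and 365.8 scaled reads in the vector libraries against 2329, 2105 and 2116 in the nPD-L1 libraries. All 3 nPD-L1 libraries lay far above all 3 vector libraries. The mean rose 6.53-fold (log2 fold change 2.71, standard error (SE) 0.11, limma adjusted p = 2.3e-07), and by log2 fold change RARA ranked 62 among the 15076 genes tested. It was called under every one of 16 refits, with adjusted p values from 1.5e-96 to 4.2e-05.

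The other retinoic acid receptors were not called. RARG, the form best known from skin, had 373.5, 265.4 and 425.0 scaled reads with vector against 366.4, 325.7 and 292.3 with nPD-L1, so the groups overlapped (log2 fold change −0.09, 95% interval −0.49 to 0.31, limma adjusted p = 0.862). RARB, itself a classical retinoic acid target, had 17.2, 12.4 and 31.2 with vector and 22.7, 34.4 and 22.2 with nPD-L1 (0.44, −0.44 to 1.31, limma adjusted p = 0.69). Per kb of exon, RARA made up 46.1%, 55.3% and 45.9% of the summed level of the 3 receptors in the vector libraries, about level with RARG at 50.6%, 41.9% and 49.1%. In the nPD-L1 libraries RARA made up 86.4%, 85.9% and 87.7%, and the sum itself went from 144, 123 and 169 to 570, 518 and 510 per kb. These shares describe the same reads as the test of RARA and were not tested again.

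**Figure D3:**
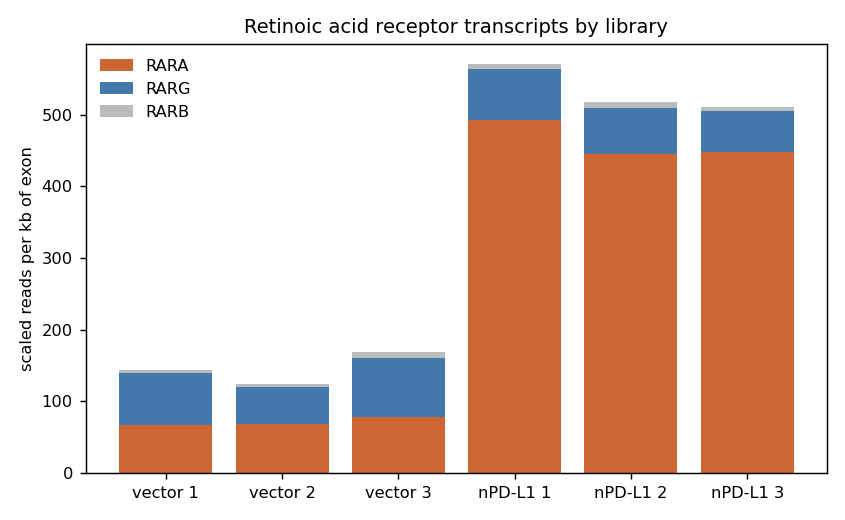
Stacked bars of scaled reads per kb of exon for RARA, RARG and RARB in each library, on a linear axis from 0. The bars total 123 to 169 per kb in the vector libraries and 510 to 570 in the nPD-L1 libraries, and most of the added height is RARA.

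RXRA, the retinoid X receptor alpha, is the shared partner of RARA, VDR and the thyroid hormone receptors. It lies on chromosome 9 from 134317098 to 134440585 and had 1618, 1513 and 1649 scaled reads with vector against 2654, 2293 and 2162 with nPD-L1. The groups did not overlap, and the mean rose 1.49-fold (log2 fold change 0.57, SE 0.11, limma adjusted p = 0.0094). The call was lost without vector replicate 1 (adjusted p = 0.0543) or without nPD-L1 replicate 1 (0.0573). RXRB, the second expressed partner, went from 688 ± 42.8 to 802 ± 43.7 scaled reads (SD, n = 3 each), also without overlap but not called (0.22, 95% interval −0.01 to 0.45, limma adjusted p = 0.388). Per kb of exon, RXRA stood at 2.2, 2.0 and 1.93 times the level of RARA in the vector libraries. In the nPD-L1 libraries it stood at 0.487, 0.465 and 0.436 times, so by this measure the order of the 2 partners was opposite. That order rests on the listed exon lengths, 11083 bases for RXRA and 4731 for RARA. In scaled reads not divided by length, RXRA exceeded RARA in every library, also with nPD-L1, where RARA had 2329, 2105 and 2116.

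VDR and THRA, both partners of RXRA, were also higher. VDR, the vitamin D receptor (chromosome 12), had 409.8, 311.7 and 439.6 scaled reads with vector against 804.2, 845.5 and 749.5 with nPD-L1, a 2.07-fold higher mean without overlap (log2 fold change 1.06, SE 0.14, limma adjusted p = 0.0012). THRA, the thyroid hormone receptor alpha (chromosome 17, 40058290 to 40093867), had 338.1, 238.3 and 264.0 with vector and 641.2, 540.1 and 494.9 with nPD-L1, 2.0-fold higher in the mean (log2 fold change 1.0, SE 0.16, limma adjusted p = 0.0036). Both kept their calls under all 16 refits. THRB, the second thyroid hormone receptor, was less abundant and not called (112 ± 25.4 and 128 ± 7.06 scaled reads, SD, n = 3; log2 fold change 0.21, 95% interval −0.22 to 0.65).

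HNF4A, a receptor that maintains hepatocyte gene expression, was low in both groups. It had 19.2, 11.3 and 6.24 scaled reads in the vector libraries against 51.3, 51.6 and 33.8 in the nPD-L1 libraries. Every nPD-L1 library exceeded every vector library, but the vector values differed widely among themselves and vector replicate 3 was below the minimum of 10. On the log2 scale it rose by 1.91 (SE 0.42, limma adjusted p = 0.023), and the call was lost without nPD-L1 replicate 1, 2 or 3 (adjusted p = 0.134, 0.111 and 0.0633). The size of the rise depended on the pseudocount added before the log, at 1.34 with 10 and 2.0 with 0.1. HNF4G, its close relative, was more abundant, at 218 ± 32.8 and 269 ± 18.9 scaled reads (SD, n = 3), and was not called (0.31, limma adjusted p = 0.416).

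NR4A3 (NOR1) belongs to a group of receptors that act without a known classical ligand and are induced rapidly by many stimuli. It had 109.0, 109.5 and 125.7 scaled reads with vector against 176.5, 232.6 and 235.4 with nPD-L1, 1.87-fold higher without overlap (log2 fold change 0.89, SE 0.17, limma adjusted p = 0.012). The call was lost without vector replicate 1 (adjusted p = 0.0639), nPD-L1 replicate 2 (0.0728) or nPD-L1 replicate 3 (0.0861). Its relatives NR4A1 (540 ± 223 and 678 ± 149 scaled reads, SD, n = 3) and NR4A2 (153 ± 53.2 and 147 ± 20.2) overlapped between the groups, and their log2 fold changes of 0.39 and −0.02 were not called.

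NR5A2 and NR0B1 were the receptors that fell. NR5A2 (LRH-1; chromosome 1) is known in the liver as an activator of bile acid and cholesterol genes. It had 243.3, 124.2 and 292.0 scaled reads in the vector libraries against 59.7, 57.7 and 52.1 in the nPD-L1 libraries. The nPD-L1 libraries lay close together and below all vector libraries, among which vector replicate 2 was the lowest. The vector mean was 3.89 times that with nPD-L1 (log2 fold change −1.86, SE 0.28, limma adjusted p = 0.0028). Without vector replicate 2 the log2 fold change of NR5A2 was −2.22. NR0B1, on chromosome X, had 2488, 2897 and 2016 with vector and 1484, 1458 and 1220 with nPD-L1, a vector mean 1.78 times as high (−0.82, SE 0.14, limma adjusted p = 0.0055). Both calls held in all 16 refits. NR0B1 went from 17.6% to 22.5% of the summed level per kb of all 41 receptors in the vector libraries to 10.4% to 11.8% in the nPD-L1 libraries, while that sum was 5193 to 5839 per kb with vector and 5315 to 5756 with nPD-L1.

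The promoters of 5 of these receptors are shown as examples, chosen after all 7 found were seen because their base composition differs widely. Each is the run of 250 bases before a RefSeq start (GRCh38.p14), given 5′ to 3′ on the gene's strand, for the start nearest to the 5′ start of the gene in the table. Capitals mark AGGTCA (the nuclear receptor half-site), TGANTCA (the AP-1 site) and GGGCGG (the GC box), on either strand and with overlaps kept.
RARA, chr17:40308930-40309179: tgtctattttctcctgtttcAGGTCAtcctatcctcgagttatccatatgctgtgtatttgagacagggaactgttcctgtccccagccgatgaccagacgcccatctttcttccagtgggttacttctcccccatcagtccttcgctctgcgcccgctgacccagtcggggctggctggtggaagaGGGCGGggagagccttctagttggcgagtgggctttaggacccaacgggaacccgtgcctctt
THRA, chr17:40062715-40062964: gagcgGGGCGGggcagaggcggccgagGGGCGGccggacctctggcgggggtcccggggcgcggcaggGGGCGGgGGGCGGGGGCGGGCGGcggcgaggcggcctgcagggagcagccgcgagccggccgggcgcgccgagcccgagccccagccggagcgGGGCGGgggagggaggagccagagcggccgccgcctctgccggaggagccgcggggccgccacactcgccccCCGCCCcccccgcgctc
RXRA, chr9:134326205-134326454: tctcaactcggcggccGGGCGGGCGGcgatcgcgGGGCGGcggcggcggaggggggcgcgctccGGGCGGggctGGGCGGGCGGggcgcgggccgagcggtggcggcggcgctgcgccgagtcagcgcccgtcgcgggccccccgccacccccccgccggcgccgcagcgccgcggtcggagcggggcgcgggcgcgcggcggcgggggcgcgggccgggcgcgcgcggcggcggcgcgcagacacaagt
NR5A2, chr1:200027460-200027709: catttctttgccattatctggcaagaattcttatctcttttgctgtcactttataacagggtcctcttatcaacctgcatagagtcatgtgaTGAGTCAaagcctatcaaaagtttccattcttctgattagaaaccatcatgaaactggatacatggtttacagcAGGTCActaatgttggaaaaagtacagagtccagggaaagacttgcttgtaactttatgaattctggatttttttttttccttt
NR0B1, chrX:30309391-30309640, minus strand: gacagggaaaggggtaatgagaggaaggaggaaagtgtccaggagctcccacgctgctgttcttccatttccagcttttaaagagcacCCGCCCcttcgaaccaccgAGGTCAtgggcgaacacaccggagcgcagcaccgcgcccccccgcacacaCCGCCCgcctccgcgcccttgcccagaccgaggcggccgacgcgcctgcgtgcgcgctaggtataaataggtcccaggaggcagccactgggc

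The RefSeq start used for RARA lay 12 bases from the 5′ start of the gene in the table, those of NR5A2 and NR0B1 108 and 208 bases from it, and those of THRA and RXRA 4675 and 9357 bases inside the listed gene. THRA and RXRA were 87.2% and 89.2% G or C and held 8 and 6 GC boxes, whereas NR5A2 was 36.0% G or C and held none, beside a median of 58.0% over 34943 promoters of the same length. RARA (56.4%), NR5A2 and NR0B1 (65.2%) each held 1 half-site AGGTCA, and NR5A2 also held 1 AP-1 site. Of all promoters, 12.1% held AGGTCA, 6.59% TGANTCA, 42.5% GGGCGG and 10.8% TATAAA, a motif searched as well but not capitalized. Of the 31 receptors tested that had a promoter, 19.4%, 9.68%, 54.8% and 9.68% held them. The HNF4A and NR4A3 promoters, not printed, were 58.4% and 68.0% G or C and held 1 and 0 GC boxes, so the receptors that rose spanned 56.4% to 89.2%. No promoter entry was used for VDR. The matches are letters in a window and say nothing of binding.

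Exons of other genes overlap some of these receptors, and without stated strand counting such reads cannot be assigned. 556 of the 4731 exon bases of RARA (11.8%) are shared with RARA-AS1 on the opposite strand in GENCODE v29, and 291 (6.15%) with AC080112.3, also on the opposite strand and too low to be tested. RARA-AS1 was itself called, with means of 13.7 (vector) and 71.7 (nPD-L1) scaled reads (log2 fold change 2.35, limma adjusted p = 0.0015), and reads cannot be told apart where exons are shared. THRA and NR1D1, which encodes the clock receptor REV-ERB-alpha, run toward each other and share 263 exon bases, 3.78% of THRA and 9.49% of NR1D1. NR1D1 went the other way, from 354 ± 50.3 to 313 ± 42.3 scaled reads (SD, n = 3; log2 fold change −0.18, limma adjusted p = 0.678). VDR shares 19 exon bases with another transcript, and for RXRA, HNF4A, NR4A3, NR5A2 and NR0B1 no exon overlap with another gene was found.

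The 27 receptors tested but not called had log2 fold changes between −0.61 (RORA) and 0.71 (NR2E3), with adjusted p values from 0.176 to 0.984 in limma. For 21 of the 27 the 95% interval lay within a 2-fold change in either direction, and for 13 within 1.5-fold. 4 had an unadjusted p under 0.05 and did not overlap between the groups: NR1D2 (REV-ERB-beta, 0.32) leaned higher, and NR2F1 (COUP-TFI, −0.38), NR1H2 (−0.24) and PPARG (−0.23) leaned lower. Counting all receptors tested, the groups did not overlap for 15 of 35 (42.9%), while this held for 20.6% of all genes tested.

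Among the fatty acid and sterol sensors, PPARG had 1756, 1929 and 1692 scaled reads with vector against 1541, 1531 and 1491 with nPD-L1, and its adjusted p in limma was 0.28. NR1H2 went from 1652 ± 77.9 to 1398 ± 92.1 (limma adjusted p = 0.279), and NR1H3, LXR-alpha, from 414 ± 91.3 to 450 ± 55.1 scaled reads (SD, n = 3). PPARD and PPARA had log2 fold changes of 0.23 and 0.18. None of the PPARs or LXRs was called.

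Steroid receptors were not called either. NR3C1 was the receptor with the most scaled reads, at 4522 ± 556 (vector) and 4028 ± 222 (nPD-L1; SD, n = 3 each; log2 fold change −0.16, 95% interval −0.41 to 0.09). NR3C2, the mineralocorticoid receptor, had 77.7, 67.8 and 30.1 with vector and 63.0, 96.1 and 92.6 with nPD-L1, an overlap in which vector replicate 3 was the lowest. PGR, the progesterone receptor, had 73.6 ± 10.5 and 86.7 ± 23.6.

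Among the orphan receptors, NR2F6 (2572 ± 354 and 2704 ± 242 scaled reads, SD, n = 3) and ESRRA (1796 ± 131 and 1721 ± 125) were abundant, and their 95% intervals, −0.19 to 0.35 and −0.29 to 0.17 on the log2 scale, lay within a 1.5-fold change. NR2F1 went from 313 ± 34.6 to 240 ± 4.48 and NR2F2 from 597 ± 77.6 to 532 ± 33.7. The testicular receptors NR2C1 and NR2C2 had log2 fold changes of 0.07 and 0.43 and were not called, and for NR2C2 vector replicate 2, at 649 against 1049 and 1241, was the low value, without which the log2 fold change was 0.16. The clock receptor NR1D2 had 756.0, 704.7 and 810.6 with vector and 868.1, 933.5 and 1045 with nPD-L1. RORA, NR6A1, NR2E3 and NR1I3 (CAR) had group means of 9.76 to 38.9 scaled reads, and their intervals reached beyond 1.5-fold in at least one direction.

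**Figure D4:**
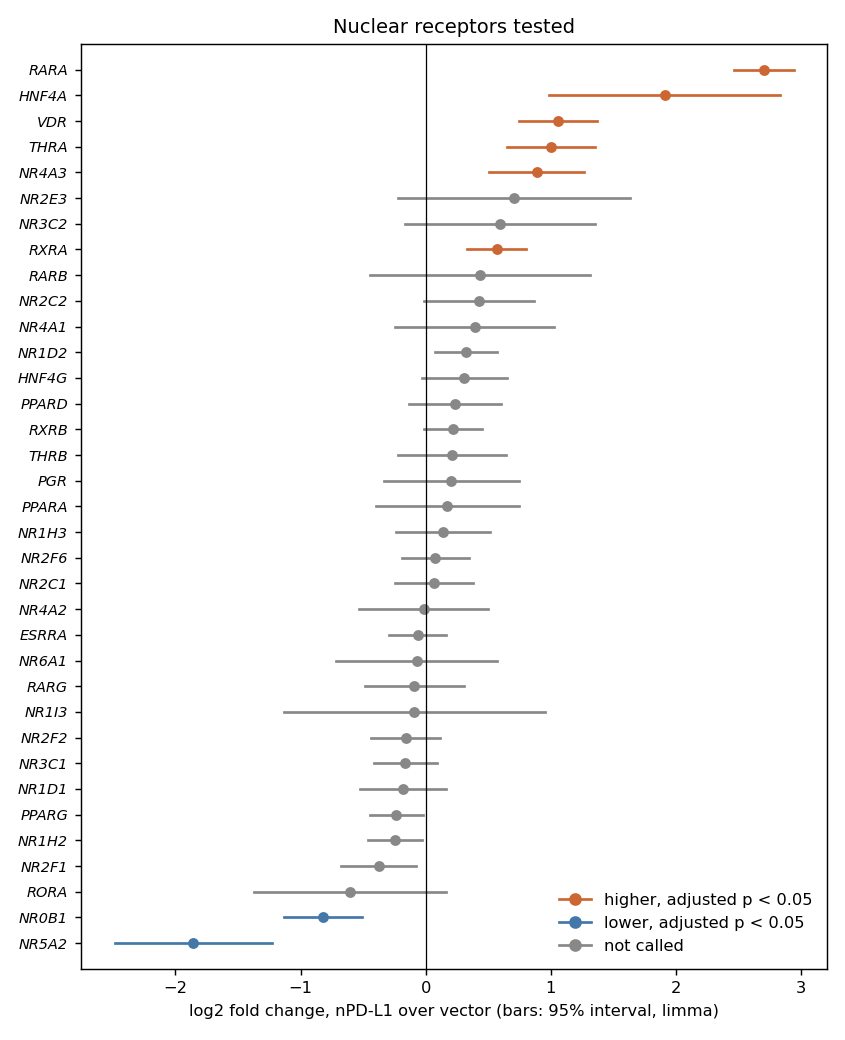
Log2 fold change of nPD-L1 over vector for the 35 receptors tested, with 95% intervals from limma (orange, higher; blue, lower; gray, not called). RARA has the highest value, 2.71, NR5A2 the lowest, −1.86, and the widest intervals belong to receptors with few reads such as HNF4A, NR1I3 and NR2E3.

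Cofactors and textbook target genes of the receptors were counted in the same fit, in which 4.04% of all genes tested were higher and 0.922% lower. Of 17 coactivators tested, PPARGC1B (log2 fold change 0.92) and KDM6A (0.45) were higher and none was lower, with a list median of 0.27. Of 12 corepressors tested, 2 were higher and 1 was lower (median 0.19). HR, a corepressor of the thyroid hormone and vitamin D receptors, had 387.6, 271.0 and 327.4 scaled reads with vector against 600.0, 563.4 and 531.5 with nPD-L1, and the groups did not overlap (0.79, SE 0.15, limma adjusted p = 0.0086). LCOR was higher by 0.66. NRIP1 (RIP140), a corepressor that retinoic acid is known to induce, was lower, at 2986 ± 637 with vector and 1728 ± 93.9 in the other group (SD, n = 3; −0.77). NCOR1, which binds unliganded receptors, was not called (0.16, limma adjusted p = 0.724). With vector replicate 1 or any one nPD-L1 library left out, PPARGC1B, KDM6A and NRIP1 lost their calls (adjusted p up to 0.154, 0.201 and 0.0759), KDM6A also under upper-quartile factors (0.0586), LCOR lost its call without vector replicate 1 or nPD-L1 replicate 1 or 3 (up to 0.0858), and HR without nPD-L1 replicate 1 (0.0676).

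Genes of retinoid handling were largely not called. 2 of 13 tested were higher and none was lower (list median −0.01), beside 4.04% and 0.922% of all genes tested. CYP26B1, which oxidizes retinoic acid for removal, had 118.1, 106.2 and 118.5 scaled reads with vector against 266.4, 212.4 and 220.9 with nPD-L1 (log2 fold change 1.02, SE 0.16, limma adjusted p = 0.0032). DHRS3, which reduces retinal to retinol, had 739.9, 721.7 and 544.6 with vector and 1352, 1457 and 1146 with nPD-L1 (0.98, SE 0.14, limma adjusted p = 0.002). In both genes every nPD-L1 library lay above every vector library. ALDH1A1, which makes retinoic acid from retinal, was the most abundant of the list at 29150 and 29750 scaled reads on average and was not called (0.05). CYP26A1, another classical retinoic acid target, averaged 1.38 and 1.92 scaled reads and entered no test.

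Of 11 textbook retinoic acid targets tested, the same CYP26B1 and DHRS3 were higher, NRIP1 was lower and 8 were not called, among them STRA6 (0.77, limma adjusted p = 0.193), TGM2 (0.08) and CRABP2 (−0.26). The list median was −0.04, and over all genes tested 4.96% were called in either direction. RARB, a receptor and also a known target, was not called either.

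For VDR, CYP24A1, the vitamin D 24-hydroxylase and its best known target, had 4401, 2777 and 5165 scaled reads with vector against 8150, 6447 and 7575 with nPD-L1 (log2 fold change 0.89, SE 0.20, limma adjusted p = 0.027). The call of CYP24A1 was lost without vector replicate 1 (adjusted p = 0.074) without nPD-L1 replicate 1 (0.157) or 3 (0.135), or without the filter on low values (0.131). THBD and CD14 were not called. Of 3 thyroid hormone targets tested, HR, already counted as a corepressor, was higher, and KLF9 (0.17) and ME1 (0.25) were not called. Beside these small lists, 4.04% of all genes tested were higher and 0.922% lower. The 1 HNF4A target tested, SERPINA1 (0.22), was not called, and APOA1, APOA2, APOB, TTR, F7 and MTTP were too low to be tested, at 3.39 scaled reads or less.

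Of 10 PPAR targets tested, ANGPTL4 (3.13) and ACSL1 (0.64) were higher and PDK4 (−2.45) was lower, and the other 7, CPT1A among them, were not called (list median −0.02). As for the lists that follow, 4.04% of all genes tested were higher and 0.922% lower. Of 8 LXR targets, ABCG1, a cholesterol exporter, was higher, with 130.2, 250.7 and 92.5 scaled reads with vector against 368.9, 571.5 and 570.1 with nPD-L1 (1.76, SE 0.32, limma adjusted p = 0.0075). Its call was lost without nPD-L1 replicate 3 (adjusted p = 0.0631) or without the filter on low values (0.136). ABCA1 (0.51), SREBF1 (0.55) and SCD (0.87) were not called, and the list median was 0.47. Of 5 REV-ERB targets NFIL3 was lower (−1.59), with BMAL1, CLOCK, NPAS2 and CRY1 not called (list median 0.11). Of 6 glucocorticoid targets TSC22D3 was lower (−0.46) and FKBP5, PER1, DUSP1, SGK1 and KLF9 were not called (list median 0.19). ACSL1 and TSC22D3 kept their calls with vector replicate 2 left out but lost them without any one of the other libraries (adjusted p up to 0.165 and 0.214), and TSC22D3 also without the filter on low values (0.0545). None of 6 estrogen targets (median 0.11), 3 PXR or CAR targets (median −0.003) or the 1 FXR target tested, SLC51A (0.93, limma adjusted p = 0.154), was called.

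**Figure D5:**
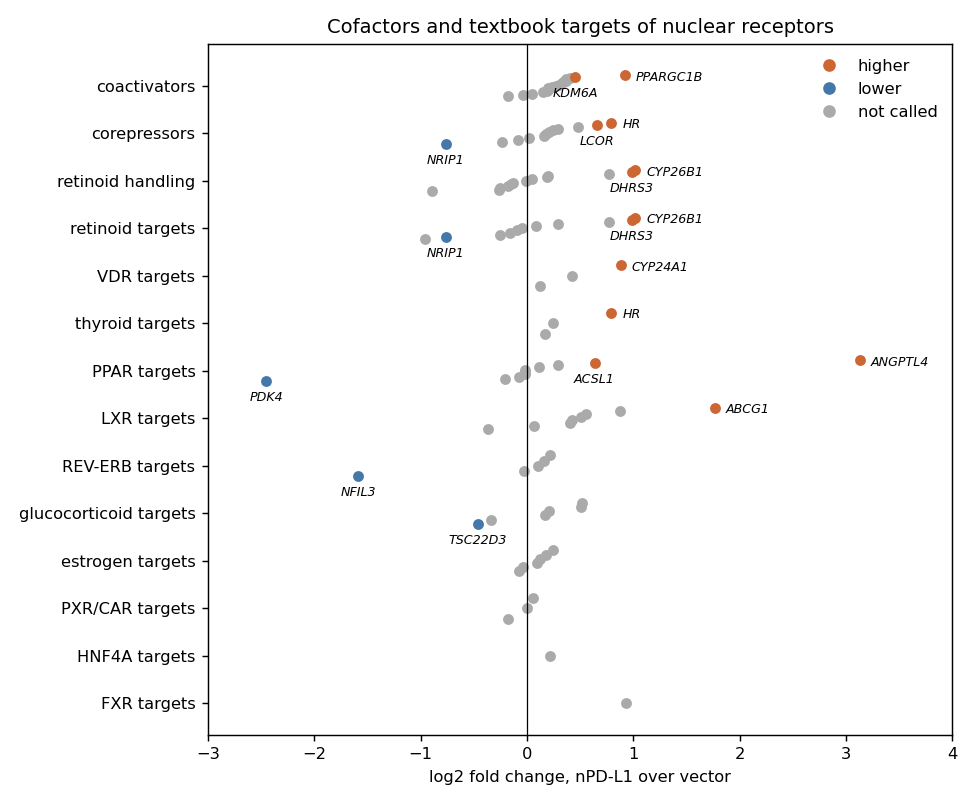
Log2 fold change of nPD-L1 over vector for the tested genes of 14 cofactor and target lists, one point per gene (orange, higher; blue, lower; gray, not called). Most points lie between −0.5 and 0.6 in all lists but that of FXR targets, with 1 gene tested, and the named genes are those with an adjusted p under 0.05.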

How the data were processed

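A company sequenced RNA of Hep3B cells without endogenous PD-L1, as 3 vector and 3 nPD-L1 libraries grouped by sample title. The submitters' processing notes name CASAVA, HISAT2 (2.0.5) and hg38, and the counter, annotation and strand setting are not given in the sources used here. The values the authors deposited are a signal, reads per gene divided by a size factor per library, beside group means, gene lengths and the authors' own fold changes and p-values, which were not used. In all 6 libraries, 100% of values were whole multiples of 1 step (tolerance 0.0001), so reads were recovered and edgeR (4.0.16) and DESeq2 (1.42.0) could be run as alternatives. edgeR called 618 genes higher and 142 lower, and DESeq2 758 and 202. In vector replicate 1 and nPD-L1 replicate 2 the step lies within about 1% of 1, so recovery is less certain there.

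limma (3.58.1, R 4.3.3) was fitted to log2(value + 1), with trend and robust moderation, on the 15076 genes that reached 10 in 3 or more libraries. Benjamini-Hochberg adjustment ran over all of them, and genes were called at an adjusted p under 0.05. The log2(value + 1) scale understates changes of low genes. The functions were tested on simulated data. Levels per kb used the deposited gene lengths, which equal the union of GENCODE v29 exons for 41 of 41 receptors. Promoters came from RefSeq.

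The receptors, 16 related lists and tests were chosen with earlier results of these data known. Named genes were all listed receptors, called genes of the lists (up to 3 per direction and list, by size), and CD274; other named list genes were picked as examples after their values were seen. The study calls the samples of each group independent but does not say that they were separate cultures or infections, so p-values measure the spread between these samples. The sources name no batch. Some genes of the related lists are not reported here and are not counted in them.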

Additional observations from a re-analysis of the deposited data

How the results depend on the processing

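The receptor counts were recomputed under 16 refits (upper-quartile or TMM factors, no filter or a stricter one, pseudocounts of 0.1 and 10, non-robust moderation, the replicate block, edgeR, DESeq2 and each library left out) and under 2 other thresholds. The count of higher receptors was 6 in most of them, 5 where every library had to reach 10, which leaves HNF4A untested, and 4 to 6 with a library left out. That of lower receptors stayed at 2 in all 16 refits, those with a library left out included. With a log2 fold change of at least 1 required, 4 were higher and 1 was lower. With an unadjusted p, 7 were higher and 5 lower. No log2 fold change of a called receptor changed sign. Whether vector and nPD-L1 replicate numbers pair the libraries was not settled. Correlations of deviations were −0.01, 0.23 and 0.13 for numbers 1, 2 and 3, and −0.22 to 0.08 between unlike numbers. With the replicate block 6 receptors were higher and 2 lower, while calls over all genes went from 609 and 139 to 927 and 258. Among the listed genes, CYP26B1, DHRS3, ANGPTL4, PDK4, NFIL3 and COL1A1 were called in all 16 refits. PPARGC1B, KDM6A, LCOR, HR, NRIP1, ACSL1, ABCG1, CYP24A1 and TSC22D3 lost the call in 1 to 6, with adjusted p values up to 0.214. The limits are 3 libraries per group and few reads for HNF4A.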

Other observations

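RARA and THRA lie on the same arm of chromosome 17, 250.9 kb apart from start to start. Genes of which any part lay within 250 kb of either end of a called receptor were therefore counted, a window chosen after the data were seen. Of all genes tested, 4.04% were higher and 0.922% lower. Around RARA, 16 neighbors were tested. RARA-AS1 (2.35), THRA (1.0) and the transcript AC018629.1 (0.92, limma adjusted p = 0.022) were higher and none was lower, with a median log2 fold change of 0.04. THRA is a called receptor whose place prompted the count, and RARA-AS1 shares exon bases with RARA. The 3 of 16 are therefore not set against the share of all genes as a result. Around THRA, 13 neighbors were tested, and the 2 that were higher were RARA and RARA-AS1. The genes that lie between THRA and RARA did not pass the test. They were NR1D1 (−0.18), MSL1 (0.39), CASC3 (0.03), RAPGEFL1 (−0.10), WIPF2 (0.34) and CDC6 (−0.03), whose start is 21.6 kb from that of RARA. On the far side of RARA, TOP2A (−0.08) and IGFBP4 (−0.08) were not called, while TNS4 had means of 6838 and 11270 scaled reads and an adjusted p of 0.093 in limma.

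Next to the other receptors, HDAC7, a class II histone deacetylase, was higher beside VDR (812 and 1145 scaled reads on average, log2 fold change 0.50, limma adjusted p = 0.028), as 1 of 13 neighbors tested. FITM2, a lipid droplet gene, was higher beside HNF4A (289 and 428, 0.56, limma adjusted p = 0.04), as 1 of 8. No neighbor of RXRA, NR4A3, NR5A2 or NR0B1 was called, with 3, 3, 2 and 1 tested.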
